A study of Sus scrofa with 48 samples.

Results

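Catalase and 9 further antioxidant enzyme genes were examined in pig subcutaneous adipose tissue (SCAT). The genes were CAT, SOD1, SOD2, SOD3, GPX1, GPX3, GPX4, PRDX1, PRDX3 and TXNRD1, and a probe was a member when the array annotation, or the accession behind it, named it as 1 of these 10 genes. The array holds 64 member probes among 60305. All 64 passed the filter, which asked for a signal flagged well above background on 9 or more of the 12 arrays of any 1 group and was passed by 44356 probes in all. CAT carried 9 probes and the other 9 genes 55. The list was built around CAT, which was selected on its measured level, higher in low RFI pigs on these arrays, so its differences between the lines are given as a description, without a test. The other genes were listed with earlier results of these arrays known, so counts over them are not independent evidence.

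The study asked how a change in dietary energy source altered gene expression in the fat of pigs from 2 lines bred in opposite directions for residual feed intake (RFI), that is, for eating more or less than growth and fatness predict. Total RNA of 48 pigs aged 132 days, 1 pig per array, was hybridized to a porcine Agilent microarray with a single dye. There were 4 groups of 12 pigs: low RFI (RFIneg) or high RFI (RFIpl) pigs given a high-fat, high-fiber (HF) diet, and low RFI or high RFI pigs given a low-fat diet rich in starch (LF), all ad libitum. Diets were formulated to the same energy and protein content, with plant oils and straw in HF in place of starch, so fat and fiber cannot be told apart. The study reports that HF pigs ate less, ended the trial lighter and carried less fat, and that low RFI pigs ended heavier. These differences cannot be told apart from diet or line here. All pigs were castrated males of the Large White breed, and a line difference is one between 2 selected populations.

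Antioxidant enzymes act in sequence. Superoxide dismutases turn superoxide into hydrogen peroxide, which is then removed by catalase, mostly in peroxisomes, by glutathione peroxidases, which use glutathione, and by peroxiredoxins, which are recharged by thioredoxin and its reductase. In fat cells, hydrogen peroxide arises from mitochondrial respiration, from peroxisomal oxidation of fatty acids and from NADPH oxidases. TXNRD1 and several genes of glutathione synthesis are known targets of the transcription factor NRF2.

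Between 62.2% and 81.9% of the probes of an array were well above background, and no spot was saturated. The median correlation of an array with the others was 0.972 to 0.985. The lowest 4 arrays (0.972 to 0.977) were HF high RFI pig 7, LF low RFI pigs 4 and 7 and LF high RFI pig 12, and results that changed without them are given as such. Of 14 adipocyte markers, 13 had a probe that passed the filter, and PLIN4 was not analysed here. Arrays were scanned on 2 dates, 24 arrays each with 6 pigs of every group. A level is the log2 intensity of a probe minus the median of its array, and levels of different probes were compared only to find the brightest probe of a gene and between 2 probes of the same sequence. A probe was called when p was under 0.01, the change exceeded 1.1-fold and the Benjamini-Hochberg adjusted p over all 44356 probes was under 0.08, in a limma fit of the 4 groups.

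Probes of 3 of the 10 genes, TXNRD1, SOD2 and CAT, were lower under the HF diet. The brightest TXNRD1 probe was 1.42-fold lower in HF pigs, that of SOD2 1.2-fold and that of CAT 1.14-fold. No member probe was called higher under HF. In total 21 of the 64 probes (32.8%) were called lower, against 7.44% of all 44356 probes called lower and 13.1% called in either direction. Probes of a gene share a target, so the count stands for 3 genes of 10, and 9.56% of the 9911 genes with a name were called lower at their brightest probe. The split of all diet calls depends on the scaling: 2489 probes were higher and 3301 lower after median centering, 3853 and 1884 after centering on the 75th percentile, 2788 and 2733 after quantile normalization. The member calls were all lower in each of these, with 21, 18 and 19 probes.

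TXNRD1, the cytosolic thioredoxin reductase that returns electrons from NADPH to thioredoxin, gave the largest difference of the 10 genes between diets. At its brightest probe, the level in HF low RFI pigs ran from 4.06 to 5.03 with a median of 4.57. In HF high RFI pigs it ran from 3.53 to 4.68 with a median of 4.46. In LF low RFI pigs it ran from 4.59 to 5.55 with a median of 5.15, and in LF high RFI pigs from 4.55 to 5.18 with a median of 4.75. HF and LF pigs overlapped, but 23 of the 24 HF pigs lay below the LF mean, 14 of them below every LF pig, and in each line all 12 HF pigs lay below the mean of their LF counterparts. The log2 fold change was -0.51 ± 0.08 (SE, n = 24 pigs per diet), with an adjusted p of 4.86e-05 in the limma fit. The diet difference was called within low RFI pigs (-0.56 ± 0.11, adjusted p = 0.00734) and within high RFI pigs (-0.47 ± 0.11, adjusted p = 0.0309), with n = 12 pigs per group. Neither was called on either scan date alone or with array position as a block, where 0.0338% and 0.519% of all probes were. The 6 probes measured in all groups were all called, at -0.46 to -0.53, and the seventh is described below.

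The 3 TXNRD1 probes below are shown because their bases read as protein-coding sequence, and the last of them was measured mainly in LF pigs. The sequences are those of the array annotation, 60 bases each.
A_72_P455657: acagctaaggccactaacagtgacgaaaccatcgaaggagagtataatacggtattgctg
O14115: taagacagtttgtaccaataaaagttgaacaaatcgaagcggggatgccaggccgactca
A_72_P177956: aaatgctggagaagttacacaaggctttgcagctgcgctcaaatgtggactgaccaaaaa
The first, starting at base 843 of its transcript record, was lower under HF by a log2 fold change of -0.53 ± 0.10, and the next by -0.50 ± 0.10. The last, starting at base 1345 of another TXNRD1 record, was dim. It was well above background on 3 of 12 HF low RFI arrays and 2 of 12 HF high RFI arrays, against 9 and 10 of 12 in the LF groups, so it passed the filter only through the groups where it was high. Its log2 fold change of -0.65 ± 0.18 is therefore partly a difference from background. Without it 20 of 63 member probes (31.7%) were called.

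SOD2 and CAT, which act in mitochondria and peroxisomes, were lower under HF by smaller amounts. SOD2 encodes the manganese superoxide dismutase of the mitochondrial matrix. At its brightest probe, HF low RFI pigs ran from 4.44 to 5.01 with a median of 4.75, and HF high RFI pigs from 4.003 to 4.76 with a median of 4.30. LF low RFI pigs ran from 4.17 to 5.39 with a median of 4.93, and LF high RFI pigs from 4.20 to 5.05 with a median of 4.64. The diets overlapped widely, with 20 of 24 HF pigs below the LF mean. The log2 fold change was -0.26 ± 0.07 (SE, n = 24 pigs per diet, adjusted p = 0.0184). Of the 8 SOD2 probes 6 were called, at -0.25 to -0.37, and the remaining probes had -0.17 and -0.15. The brightest probe and A_72_P341278 carry the same sequence, so they count as 1 measurement.

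CAT encodes the heme enzyme that splits hydrogen peroxide into water and oxygen. At its brightest probe, HF low RFI pigs ran from 7.42 to 7.86 with a median of 7.61, and HF high RFI pigs from 7.19 to 7.69 with a median of 7.40. LF low RFI pigs ran from 7.46 to 8.06 with a median of 7.89, and LF high RFI pigs from 7.12 to 8.01 with a median of 7.66. The groups overlapped, with 20 of 24 HF pigs below the LF mean and 8 of 24 LF pigs above every HF pig. The log2 fold change was -0.18 ± 0.05 (SE, n = 24 pigs per diet, adjusted p = 0.0169). The 9 probes lay within -0.16 and -0.21, and 8 were called. With 75th percentile scaling 5 were called, against 12.9% of all probes.

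The 2 CAT probes whose bases read as coding sequence are shown because they are the pair on which the call differed.
A_72_P686566: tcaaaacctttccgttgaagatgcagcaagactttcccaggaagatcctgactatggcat
A_72_P643147: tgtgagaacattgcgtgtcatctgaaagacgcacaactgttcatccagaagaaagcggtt
A_72_P686566, starting at base 838 of the transcript, was not called, with a log2 fold change of -0.17 ± 0.09 and an adjusted p of 0.253. A_72_P643147, starting at base 1488, had -0.21 ± 0.06 and an adjusted p of 0.0203. The sizes were alike and the SE of the former was larger.

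**Figure D1:**
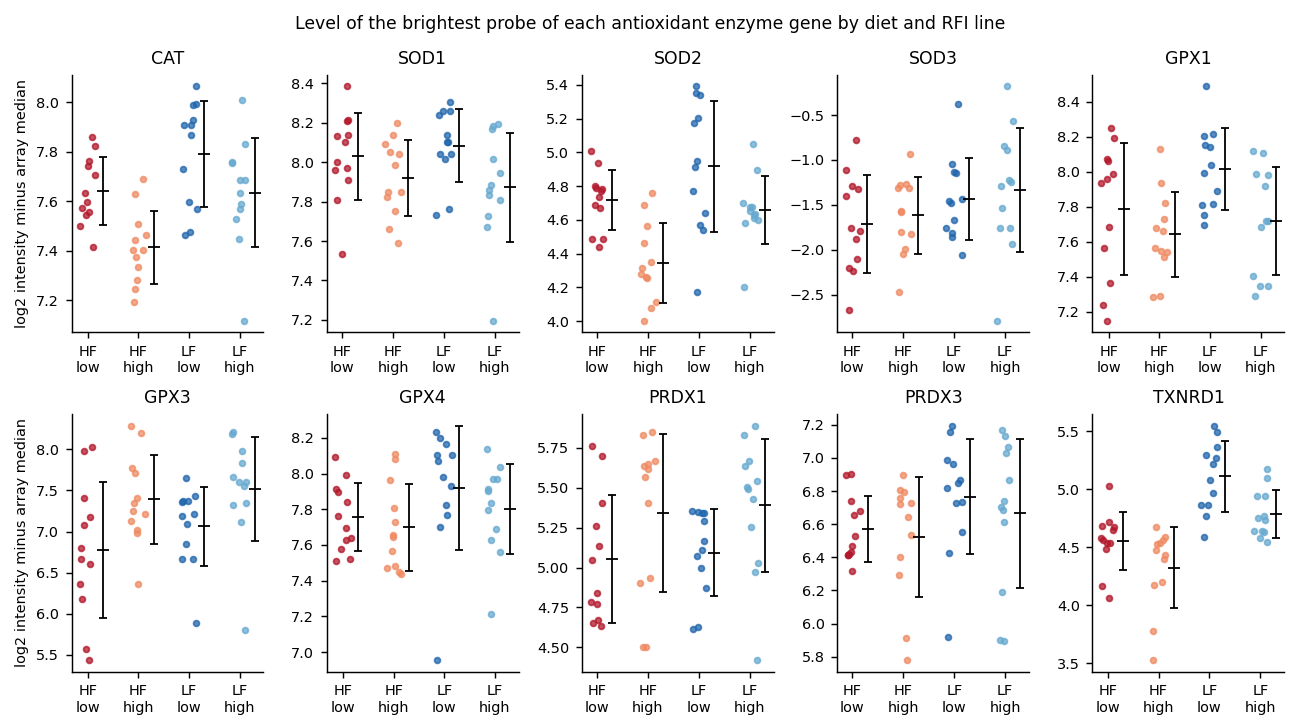
Level (log2 intensity minus array median, a separate axis per panel) of the brightest probe of each gene in the 4 groups of 12 pigs, 1 point per pig, with the group mean and SD as a bar at the right of each group; low and high name the RFI line. For TXNRD1, all 12 HF pigs of each line lie below the mean of the LF pigs of that line, while the groups overlap in every panel.

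For the other 7 genes no probe was called by diet in the limma fit of all arrays with equal weight. Most had a log2 fold change below 0: in all, 60 of the 64 member probes did, with a median of -0.18 beside -0.02 over all probes. SOD1, the copper and zinc superoxide dismutase of the cytosol, held the 4 probes above 0. Its brightest probe had -0.0036 with a 95% interval of -0.13 to 0.12. SOD3, the secreted superoxide dismutase, was dim, and its brighter probe had -0.28 (-0.58 to 0.02). The other SOD3 probe was well above background on 9 of 12 HF high RFI arrays and all arrays of the other groups, and had -0.16.

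Among the glutathione peroxidases, GPX1, the cytosolic enzyme, had -0.15 (95% interval -0.32 to 0.01) at its brightest probe. GPX3, the secreted plasma enzyme, had -0.21 (-0.56 to 0.15), and GPX4, which reduces lipid peroxides within membranes, had -0.13 (-0.28 to 0.02). The 5 GPX4 probes ranged from -0.13 to -0.07. Of the peroxiredoxins, cytosolic PRDX1 had -0.04 (-0.27 to 0.18). Mitochondrial PRDX3 had -0.17 (-0.36 to 0.03), and its 15 probes all lay between -0.18 and -0.12. Without the 4 arrays that stood apart, 27 member probes were called in place of 21 and 15.9% of all probes in place of 13.1%, and the brightest PRDX3 and GPX4 probes then passed, at -0.23 (adjusted p = 0.0539) and -0.18 (adjusted p = 0.0515). With array weights 4 PRDX3 probes were called, the brightest at -0.23 (adjusted p = 0.0417), against 17.6% of all probes.

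Of the 65 cell type markers measured, 5 (7.69%) were called by diet, below the 12.9% of all named genes. Of the 13 adipocyte markers measured, LEP (-0.67 ± 0.16) and CIDEA (-0.36 ± 0.10) were called lower under HF and none higher, with a list median of -0.09. The summed level of the list was 11.55 to 11.90 in HF low RFI, 11.42 to 11.90 in HF high RFI, 11.50 to 11.94 in LF low RFI and 11.39 to 11.91 in LF high RFI pigs, so the groups overlapped. Of 9 stromal fibroblast markers, COL1A2 was called higher (0.36 ± 0.13), and the list median was 0.18. The summed stromal level was 10.44 to 11.08 in HF low RFI, 10.62 to 11.31 in HF high RFI, 10.05 to 11.08 in LF low RFI and 9.97 to 11.67 in LF high RFI pigs, and these too overlapped. None of 13 macrophage, 7 endothelial or 7 lymphocyte markers was called by diet, with list medians of 0.04, 0.02 and 0.03. Of 7 blood cell markers 1 was called lower, EPB42 (-0.26 ± 0.09), with a list median of -0.12. Of 9 skeletal muscle markers 1 was called higher, ACTN2 (0.48 ± 0.16), while 8 had a log2 fold change below 0 and the list median was -0.16. The part of these markers in the enzyme differences was not tested, and in whole tissue fewer cells of a type and less RNA per cell cannot be told apart.

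Between the lines, 2 superoxide dismutases passed the test. Low RFI pigs had higher levels of SOD2 at 3 of 8 probes and of SOD1 at 2 of 5 probes, by 1.24-fold to 1.40-fold. Outside CAT, 5 of 55 member probes (9.09%) were called, all higher, against 0.809% of all probes called higher in low RFI pigs and 1.37% called in either direction. Since 2 of the SOD2 probes carry the same sequence and the SOD1 probes overlap, the 5 calls stand for 2 genes. The brightest probe was called for 1 of the 9 genes, SOD2. With array position on the slide as a block, where 0.591% of all probes were called, 2 SOD2 probes were left. Without the 4 arrays that stood apart 7 were called, 3 of SOD1, 3 of SOD2 and 1 of TXNRD1, against 2.63% of all probes.

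For SOD2, the brightest probe was higher in low RFI pigs by a log2 fold change of 0.32 ± 0.07 (SE, n = 24 pigs per line, adjusted p = 0.0226), with 20 of 24 low RFI pigs above the high RFI mean. All 12 HF low RFI pigs lay above the HF high RFI mean, and 8 of 12 did under LF. The widest difference was that of A_72_P444413, at 0.49 ± 0.13 (adjusted p = 0.0426). Its level ran from 0.45 to 1.92 in HF low RFI, 0.44 to 1.39 in HF high RFI, 0.47 to 2.28 in LF low RFI and 0.45 to 1.44 in LF high RFI pigs. This probe was not called by diet (-0.15 ± 0.13), whereas the probes called by diet but not by line had line differences of 0.18 to 0.25.

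For SOD1, the size of the line difference varied between probes, which the array places on 2 transcript records. The brightest probe, whose bases read as coding sequence, is shown because it was not called while probes placed on the other record were.
A_72_P721668: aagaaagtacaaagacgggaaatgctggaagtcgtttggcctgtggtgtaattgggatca
It starts at base 470 of its record and had a log2 fold change of 0.16 ± 0.06 (adjusted p = 0.277). On the other record, the probes starting at bases 801 and 818 had 0.31 ± 0.08 (adjusted p = 0.0515) and 0.305 ± 0.080 (adjusted p = 0.046). The probe starting at base 771 lay just outside the threshold, at 0.28 ± 0.08 (adjusted p = 0.082). At the probe starting at base 818, HF low RFI pigs ran from 6.27 to 7.001 with a median of 6.66, and HF high RFI pigs from 6.05 to 6.60 with a median of 6.41. LF low RFI pigs ran from 6.15 to 7.22 with a median of 6.49, and LF high RFI pigs from 5.44 to 6.85 with a median of 6.35. The lines overlapped under both diets, with 21 of 24 low RFI pigs above the high RFI mean.

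CAT, chosen for this contrast, was higher in low RFI pigs at all 9 probes, by 0.19 to 0.22 on the log2 scale. At the brightest probe the difference was 0.23 under HF and 0.16 under LF. All 12 HF low RFI pigs lay above the HF high RFI mean, and 8 of 12 LF low RFI pigs above the LF high RFI mean. The lowest level of the gene was in HF high RFI pigs and the highest in LF low RFI pigs by group mean, with 7.41 ± 0.15 and 7.79 ± 0.21 (SD, n = 12). The means of HF low RFI (7.64 ± 0.14) and LF high RFI pigs (7.64 ± 0.22) differed by less than their SD.

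**Figure D2:**
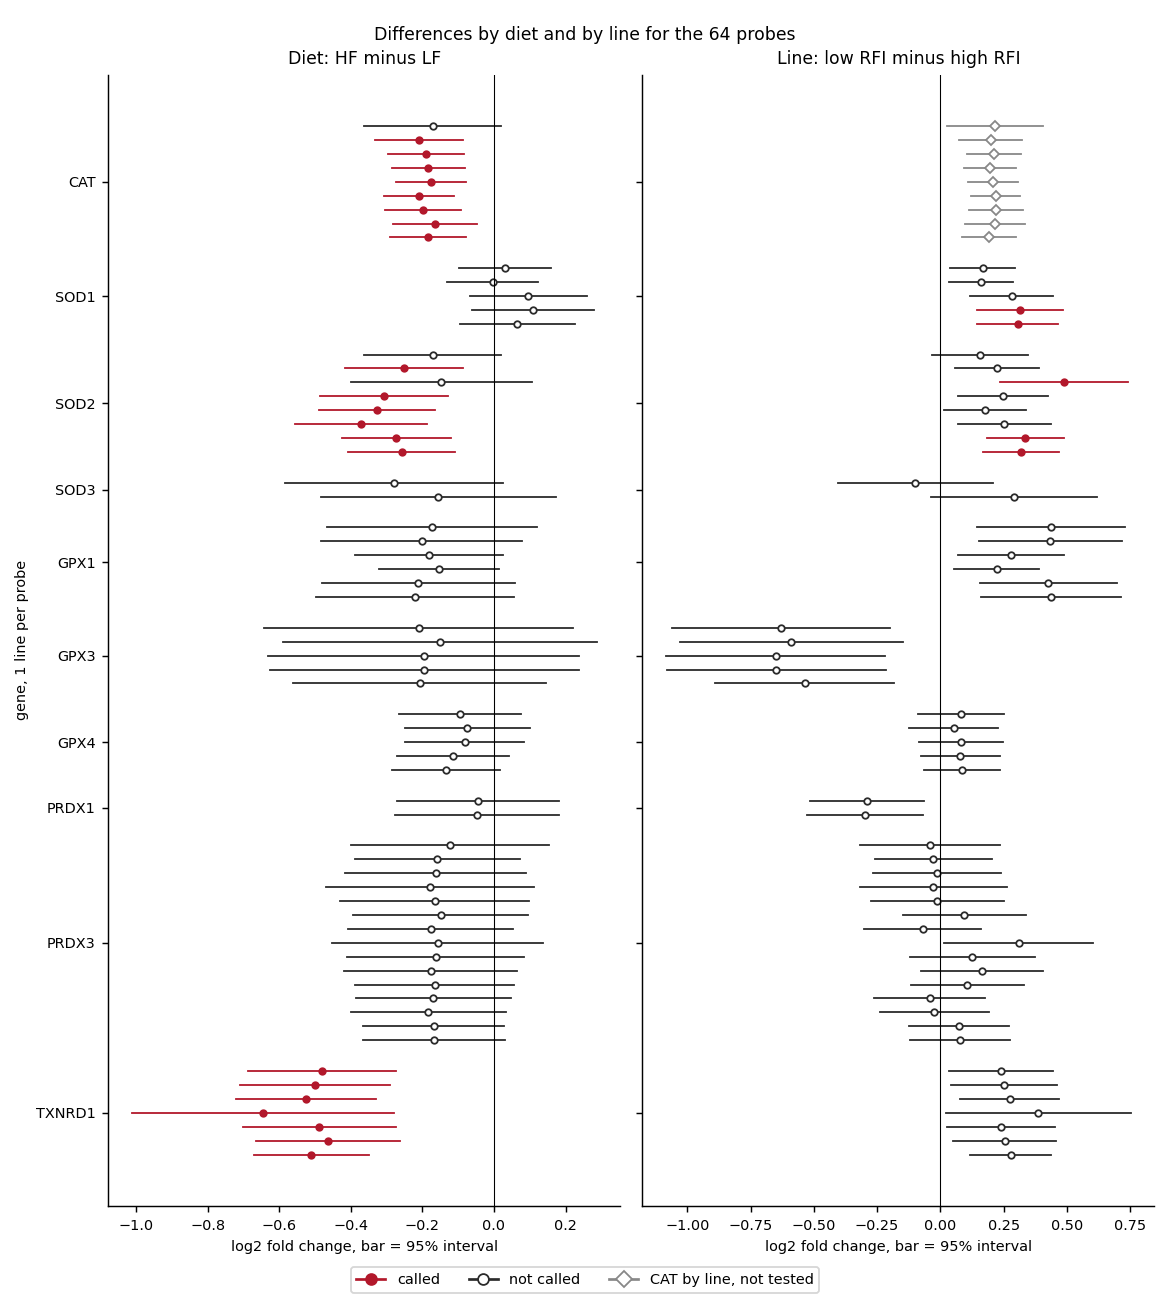
Log2 fold change of each of the 64 probes by diet (HF minus LF, left) and by line (low RFI minus high RFI, right), with its 95% interval, in order of the start given on each probe's own transcript record within each gene. Filled red points were called and open black ones were not. Grey diamonds are CAT by line, given without a test. CAT was picked for this difference, so its intervals by line cannot serve as a test against 0. By diet the called probes belong to TXNRD1, SOD2 and CAT and all lie below 0, and by line they belong to SOD1 and SOD2 and lie above 0.

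TXNRD1 stood at the edge of the threshold by line. Its 7 probes were all higher in low RFI pigs, by 0.24 to 0.39, and none was called. With slide as a block or the replicate block 2 of them were called, against 2.16% and 2.57% of all probes. With scan date as a block (1.78%), array weights (4.05%) or quantile normalization (1.4%), 1 was called. The same held without the 4 arrays that stood apart (2.63%) and with normexp background correction (1.21%). It also held with the authors' table (1.38%) and with probes well above background on all 48 arrays (1.58%). The brightest had 0.28 ± 0.08 (95% interval 0.12 to 0.44) with an adjusted p of 0.0807.

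GPX3 and PRDX1 were not called by line. GPX3 was lower in low RFI pigs at 5 of 5 probes, by -0.54 to -0.65, and the brightest had -0.54 ± 0.18 (95% interval -0.89 to -0.18, adjusted p = 0.144). Its level varied more between pigs than that of any other brightest member probe, with a within-group SD of 0.63. HF low RFI pigs ran from 5.44 to 8.03, HF high RFI pigs from 6.36 to 8.29, LF low RFI pigs from 5.89 to 7.65 and LF high RFI pigs from 5.80 to 8.21. PRDX1 was lower in low RFI pigs at both probes, the brighter by -0.29 ± 0.11 (-0.52 to -0.06, adjusted p = 0.268), and all 12 LF low RFI pigs lay below the LF high RFI mean.

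GPX1 was higher in low RFI pigs at 6 of 6 probes, by 0.22 to 0.44, with adjusted p of 0.12 or more. With slide as a block 3 of these probes were called, and with the replicate block 1, while the share of all probes called by line rose from 1.37% to 2.16% and 2.57%. Its level also followed the array: with group means removed, the brightest GPX1 probe correlated with the array median at r = -0.545 over 48 arrays and the brighter SOD3 probe at r = -0.497, whereas CAT had r = 0.076. The array median itself was 8.44 ± 0.16 in HF and 8.33 ± 0.19 in LF pigs, and by line 8.36 ± 0.17 (low RFI) and 8.41 ± 0.19 (high RFI; log2 intensity, SD, n = 24). It is already subtracted from each level, and its part in the GPX1 and SOD3 differences was not tested. GPX4 had 0.09 (-0.06 to 0.24) by line. PRDX3 had 7 probes above and 8 below 0, with the brightest at 0.07 (-0.12 to 0.27) and the widest, A_72_P568344, at 0.31 ± 0.15 (adjusted p = 0.44). The SOD3 probes were on opposite sides of 0, at -0.10 and 0.29.

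No interaction of diet and line was called for any of the 64 member probes, nor for any of the 44356 probes (0.0%), in the limma fit. At an unadjusted p under 0.05 there were 0 member probes and 462 of all probes (1.04%), or 459 by the unmoderated analysis of variance. At that share, 0 of 64 says little about the members. For TXNRD1 the interaction at the brightest probe was -0.09 (95% interval -0.41 to 0.23), for SOD2 0.11 (-0.19 to 0.41) and for CAT 0.07 (-0.14 to 0.28). Within low RFI pigs 6 member probes were called by diet, all of TXNRD1 and all lower under HF, against 3.04% of all probes called in either direction and 1.58% called lower. Within high RFI pigs 2 were called, 1 of TXNRD1 and 1 of CAT, both lower under HF, against 1.66% and 0.996%. These counts do not show that the lines responded differently, and both depended on the setting. Without the 4 arrays that stood apart they became 15 and 12, against 7.83% and 1.86% of all probes, and with array position as a block 0 and 0, against 0.0338% and 0.519%. With slide as a block they were 6 and 9 (5.35% and 3.74% of all probes) and with the replicate block 6 and 13 (6.43% and 4.3%). By line within HF or within LF, 0 of the 55 member probes outside CAT were called, against 0.0113% and 0.0338% of all probes. At an unadjusted p under 0.05 there were 15 and 20 of the 55, against 5.02% and 6.36% of all probes.

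Several of these differences were uneven between the 2 scan dates, each with 24 arrays. By diet, TXNRD1 was lower under HF on both, by a log2 fold change of -0.38 and -0.64 at the brightest probe, CAT by -0.18 and -0.19, and SOD2 by -0.15 and -0.37. Of their probes, 3 and 6 of TXNRD1, 4 and 0 of CAT and 0 and 5 of SOD2 were called, against 5.43% and 2.77% of all probes. The brightest CAT probe was not called on either date (adjusted p = 0.17 and 0.189), nor that of SOD2 on the first (adjusted p = 0.486). GPX1 was on opposite sides of 0, at 0.03 and -0.33. By line, SOD2 had 0.27 and 0.36 and SOD1, at the probe starting at base 818, 0.22 and 0.39. GPX3 had -0.92 on the first scan date and -0.15 on the second, and PRDX1 -0.48 and -0.10. PRDX3 turned between the dates, with 14 of 15 probes below 0 on the first (median -0.23) and all 15 above 0 on the second (median 0.27). On the first date alone 5 member probes outside CAT were called by line, the same number as over all arrays but other probes, 3 of GPX3 and 2 of PRDX1, all lower in low RFI pigs, against 0.958% of all probes. On the second none was, where 1 of all 44356 probes was called. Whether the dates differ was not tested.

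**Figure D3:**
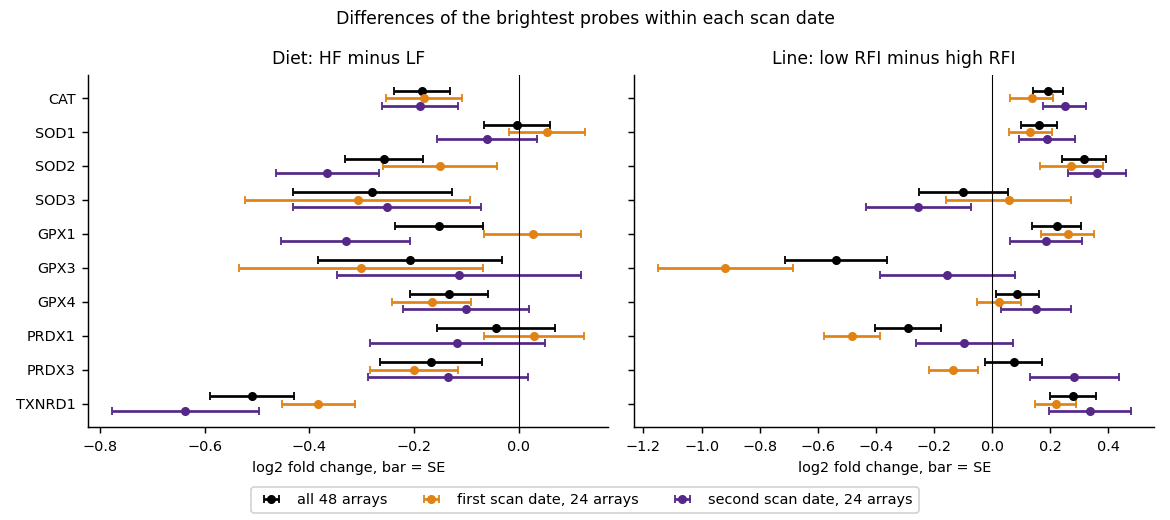
Log2 fold change of the brightest probe of each gene by diet (left) and by line (right) over all 48 arrays and within each scan date of 24 arrays, with its SE as a bar. TXNRD1, SOD2 and CAT lie below 0 by diet on both dates, and GPX3 and PRDX1 lie further below 0 by line on the first date than on the second. CAT by line is a description, since CAT was picked for that difference, and its bars cannot serve as a test.

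Across pigs, CAT varied together with 5 of the other 9 enzymes once group means were removed, each gene at its brightest probe over 48 pigs. The 9 relations were tested by 100000 permutations within groups, two-sided. The permutations did not keep slides or scan dates together, so the p-values leave out what arrays of a slide or date share. The closest was PRDX3, with Pearson's r = 0.598 (permutation p = 2e-05, adjusted p = 0.00018) and Spearman's rho = 0.599 (p = 2e-05, adjusted p = 0.00018). SOD1 had r = 0.593 (permutation p = 8e-05, adjusted p = 0.00036) and rho = 0.534 (p = 0.0002, adjusted p = 0.0006). PRDX3 is mitochondrial and SOD1 largely cytosolic. TXNRD1 had r = 0.477 (permutation p = 0.00055, adjusted p = 0.00165) and rho = 0.448 (p = 0.00257, adjusted p = 0.00578), and GPX4 r = 0.473 (permutation p = 0.0016, adjusted p = 0.0036) and rho = 0.533 (p = 0.00018, adjusted p = 0.0006). SOD2 had r = 0.408 (permutation p = 0.00819, adjusted p = 0.0147) and rho = 0.341 (p = 0.0276, adjusted p = 0.0497).

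The remaining 4 relations did not pass. PRDX1 had r = 0.217 (permutation p = 0.133, adjusted p = 0.171) and rho = 0.216 (p = 0.136, adjusted p = 0.175), and GPX3 r = 0.181 (permutation p = 0.208, adjusted p = 0.234) and rho = 0.224 (p = 0.126, adjusted p = 0.175). GPX1 had r = -0.0227 (permutation p = 0.88, adjusted p = 0.88) and rho = 0.00564 (p = 0.971, adjusted p = 0.971), and SOD3 r = -0.241 (permutation p = 0.127, adjusted p = 0.171) and rho = -0.0394 (p = 0.793, adjusted p = 0.892).

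Part of these relations rested on few arrays. Without the 2 pigs farthest from the CAT median, r was 0.5 for PRDX3, 0.452 for SOD1, 0.539 for TXNRD1, 0.47 for GPX4, 0.356 for SOD2, 0.131 for PRDX1, 0.186 for GPX3, 0.149 for GPX1 and 0.0283 for SOD3. Without the 4 arrays that stood apart, r was 0.439 for PRDX3, 0.403 for SOD1, 0.336 for TXNRD1, 0.431 for GPX4 and 0.174 for SOD2. Within the 2 scan dates r was 0.622 and 0.63 for PRDX3, 0.556 and 0.632 for SOD1, 0.477 and 0.524 for TXNRD1, 0.453 and 0.5 for GPX4, and 0.346 and 0.479 for SOD2. With slide means also removed, r was 0.638 for PRDX3, 0.679 for SOD1, 0.57 for TXNRD1, 0.475 for GPX4 and 0.377 for SOD2.

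**Figure D4:**
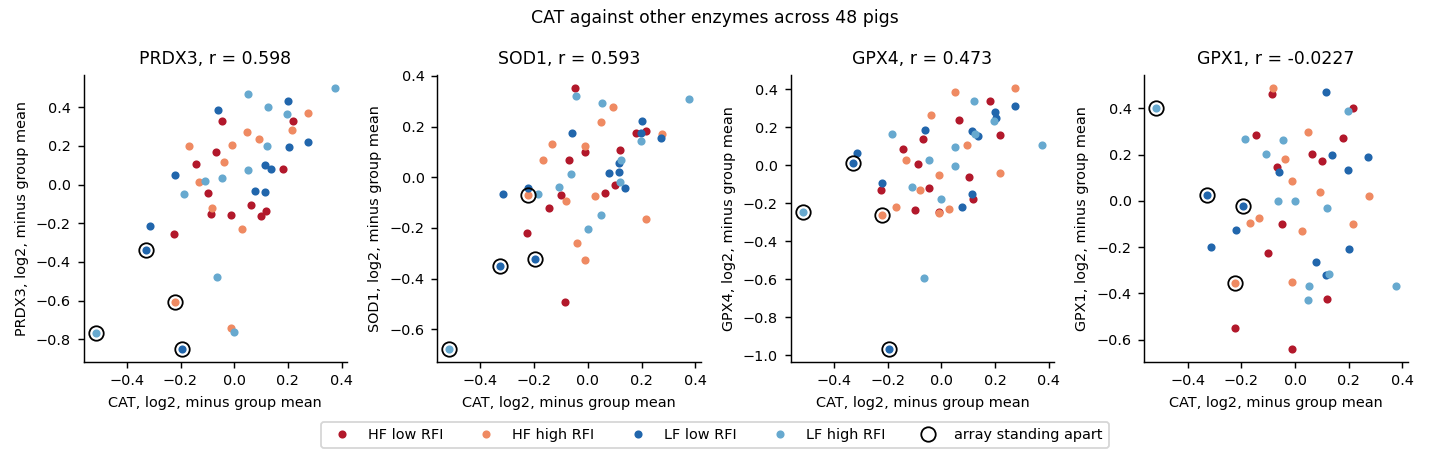
Level of CAT (x axis) against PRDX3, SOD1, GPX4 and GPX1 (y axes) at the brightest probes, each as log2 difference from the mean of its group, 1 point per pig, 48 pigs, coloured by group; rings mark the 4 arrays that stood apart. PRDX3, SOD1 and GPX4 lie along a rising band with r = 0.598, 0.593 and 0.473, with ringed arrays at its lower end, and GPX1 shows none.

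Among 9885 other genes, with a median r of 0.0669, PRDX3 stood at rank 53, SOD1 at rank 60, TXNRD1 at rank 400, GPX4 at rank 421 and SOD2 at rank 774. The 5 genes most like CAT were LONP1 (r = 0.731), a mitochondrial protease, PRR13 (r = 0.7), ACAA1 (r = 0.696), the thiolase of peroxisomal beta-oxidation, HIBADH (r = 0.686), a mitochondrial enzyme of valine breakdown, and BSDC1 (r = 0.673). These are descriptions over 48 arrays that share slides, and no test was made.

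The genes around the enzymes were read from 7 lists, each gene at its brightest probe. By diet 12.9% of the 9911 named genes were called, 947 lower and 328 higher, with a median of -0.04. The share called over the 7 lists together stood near 12.9%, and no list was tested as a set. In the list of glutathione synthesis and use, 3 of 16 measured genes were lower under HF and 1 was higher, with a median of -0.09. GCLM, the modifier subunit of the enzyme that starts glutathione synthesis, had -0.39 ± 0.08 (adjusted p = 0.00163). GLO1, which detoxifies methylglyoxal, had -0.23 ± 0.05, GSTP1, a glutathione transferase, -0.17 ± 0.06, and GSS, the second enzyme of glutathione synthesis, rose by 0.18 ± 0.06 (adjusted p = 0.0521).

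Among 19 measured regulators and targets of NRF2 and FOXO, 3 were lower and 0 higher, with a median of -0.06. MAFG, a small Maf partner of NRF2, had -0.45 ± 0.10 (adjusted p = 0.0017), AKR1B1, an aldose reductase, -0.38 ± 0.09, and FTL, the ferritin light chain, -0.18 ± 0.05. Of 16 thioredoxin, peroxiredoxin and glutaredoxin genes only GLRX, a glutaredoxin, was called, at -0.44 ± 0.14, with a list median of -0.09.

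Peroxisomal genes were read because catalase resides there. Of 14 peroxisome biogenesis genes, PEX13 (-0.33 ± 0.05, adjusted p = 5.09e-05), part of the import machinery, and PEX7 (-0.25 ± 0.07), an import receptor, were lower under HF, and PEX6 (0.20 ± 0.05) was higher, with a median of -0.04. Of 16 peroxisomal oxidases and beta-oxidation genes, ECI2 (-0.36 ± 0.12), PHYH (-0.27 ± 0.08) and DDO (-0.26 ± 0.10) were lower and 0 higher, with a median of -0.12. None of the 10 oxidases that produce reactive oxygen or of the 17 genes of selenoprotein synthesis and metal supply was called, with medians of -0.04 and -0.07.

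By line, 1.33% of the named genes were called. Of these, 87 (0.878% of the named genes) were higher in the low RFI line and 45 lower, and the median over all was 0.02. The list of peroxisomal oxidases and beta-oxidation held 3 of 16 called higher and 0 lower, with a median of 0.04. PHYH, which starts the alpha-oxidation of phytanic acid, had 0.38 ± 0.08 (adjusted p = 0.0111), and ACAA1 had 0.22 ± 0.06 (adjusted p = 0.0778). In the other 6 lists 0 genes were called by line, with medians between 0.0023 and 0.09. No marker of the 7 cell types was called by line, and the list medians were 0.10 for adipocytes and -0.14 for macrophages, with those of the other types between -0.06 and 0.04.

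**Figure D5:**
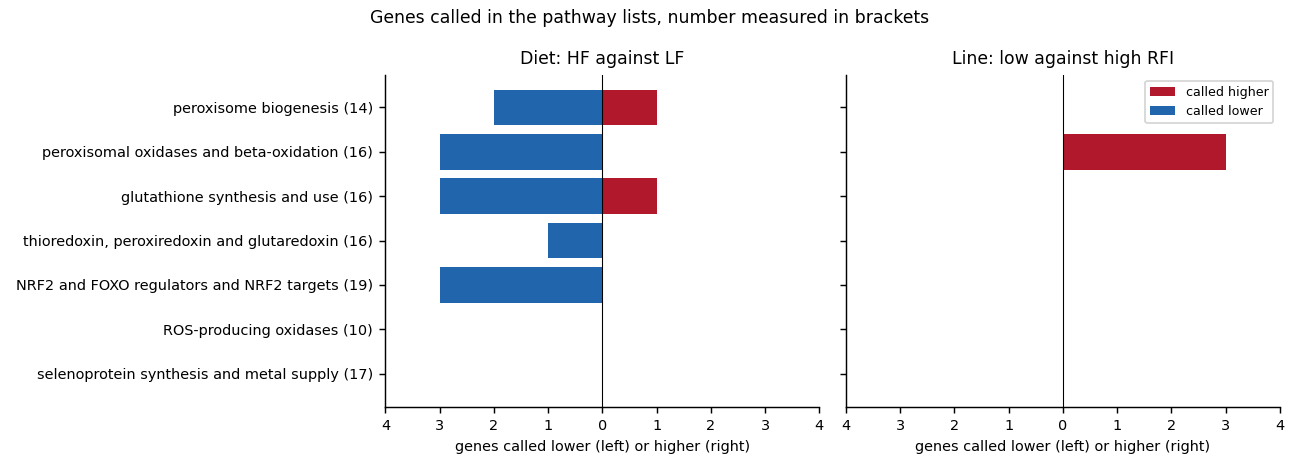
Number of genes called lower (blue, left of 0) or higher (red, right of 0) in each of 7 pathway lists by diet (HF against LF) and by line (low against high RFI), with the number of measured genes in brackets. By diet the lists hold 12 genes called lower and 2 called higher, beside 9.56% and 3.31% of all named genes. By line the only calls are 3 genes higher in low RFI pigs, in the list of peroxisomal oxidases and beta-oxidation. Of all named genes, 0.878% were called higher by line.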

How the data were processed

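Each of the 48 deposited scanner files holds 1 array. Per the study's methods, the authors scanned the arrays and extracted spot intensity values with Agilent Feature Extraction 10.7.3.1, filtered spots, took log2 and centred each sample on its median in R 2.10.0. For the 38987 probes of their deposited log2 table, taking log2 and centring the scanner files gave values that differed by at most 4.87e-09. The spot filter was not rerun.

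Here the processed intensity, already background-subtracted by the authors' software, was taken as log2 minus the array median over the 44356 probes well above background on at least 9 of 12 arrays of a group. Spots with non-uniform or population outlier marks (156 among kept probes) were left out. The array annotation gives no genome position. Printed probes were taken as coding from their translated residues, by eye and with no reference protein, and each has at least 1 forward reading frame without a stop. Names came from the annotation and RefSeq tables, and 36573 probes stayed unnamed. The SOD3 probe A_72_P035826 was named by its accession, and the GPX3 probe A_72_P036051 by its printed name, although its accession belongs to another gene in these tables. The 4 groups were fitted with limma 3.58.1 (R 4.3.3) with an intensity trend, checked on simulated data; correlations used Python 3.11.15. The call rule follows the study's methods. The precision rests on the number of arrays.

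Named genes were every member probe, up to 4 called genes of largest change per pathway list and comparison, and the 5 genes most correlated with CAT. The members and lists were chosen with earlier results of these data known. The alternatives were 18 chosen at the outset, 1 added after seeing the data (without the 4 arrays), the mean of a gene's probes in place of the brightest, and other scalings of the correlations. 1 list gene called by line and 1 probe sequence are not reported here.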

Additional observations from a re-analysis of the deposited data

How the results depend on the processing

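By diet, 18 to 27 member probes were called under 17 of the 19 alternatives, all lower under HF, against 9.22% to 17.6% of all probes, with 7 on the first scan date alone (5.43%) and 11 on the second (2.77%), where 24 arrays remain. By line outside CAT, the 5 calls, against 1.37% of all probes, became 11 with slide as a block (2.16%), 3 of them GPX1 and 2 TXNRD1 probes, 2 with array position as a block (0.591%), 0 on the second scan date alone (0.0022%), 9 with the replicate block (2.57%) and 13 with array weights (4.05%), of which 2 were PRDX1 probes lower in low RFI pigs. On the first scan date they were 5 other probes, of GPX3 and PRDX1 (0.958%). Without the 4 arrays that stood apart the line calls were 7 (2.63%), 1 of them a TXNRD1 probe. Within low RFI pigs the 6 diet calls (3.04%) became 0 with array position as a block (0.0338%) or on either scan date alone (0.0158% and 0.0%), and 15 without the 4 arrays that stood apart (7.83%). Within high RFI pigs the 2 calls (1.66%) became 1 with 75th percentile scaling (1.79%), with normexp (1.42%) or at an adjusted p under 0.05 alone (0.951%), 5 with the authors' table (2.11%), 9 with slide as a block (3.74%), 13 with the replicate block (4.3%), 16 with array weights (5.28%), 12 without the 4 arrays (1.86%), and 0 with array position as a block (0.519%) or on either scan date alone (0.543% and 0.0%). The interaction and the line differences within a diet gave 0 calls throughout. The cause of these shifts was not tested.

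Replicate numbers run along the slides. Of 72 pairs of arrays with the same number, 48 had deviations from the group means correlated above 0.1, with a median of 0.159 beside -0.0214 for other pairs. Not every pair lay above 0.1, and the labels do not say what the number marks, so the block is given as an alternative. The replicate block left the diet count at 21, while all diet calls rose from 13.1% to 16.1% of probes, and raised the line count from 5 to 9 (1.37% to 2.57% of all probes), with 1 GPX1 and 2 TXNRD1 probes among them, and that within high RFI pigs from 2 to 13 (1.66% to 4.3%).

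Of single probes not called in the main setting, several crossed 0. The brightest SOD1 probe by diet had 0.037 with 75th percentile scaling, 0.0097 with quantile normalization, 0.012 with normexp, 0.0055 with probes well above background on all 48 arrays, 0.053 on the first scan date and 0.060 as the mean of the gene's probes. The SOD1 probe A_72_P733208 by diet had -0.0018 with array weights. On the first scan date GPX1 by diet had 0.026, PRDX1 by diet 0.029, PRDX3 by line -0.13 (0.28 on the second) and SOD3 by line 0.056. PRDX1 by diet had 0.015 with quantile normalization, and SOD3 by line 0.10 as the mean of its probes. TXNRD1 by line, at an adjusted p of 0.0807, passed under 9 alternatives, those named above, where 1.21% to 4.05% of all probes were called by line. As the mean of all probes of a gene, CAT, SOD2 and TXNRD1 were called by diet, and SOD2 by line.

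The correlation of CAT with PRDX1 was 0.371 with slide means also removed and 0.0586 with 75th percentile scaling. Without the 4 arrays, those with SOD1, SOD2 and PRDX3 fell to 0.403, 0.174 and 0.439.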

Other observations

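Repeated probes show how far a difference can be read. The pair of SOD2 probes with the same sequence differed by 0.065 on the log2 scale on average within an array, and the pair of GPX4 probes by 0.044. Their diet differences were -0.26 and -0.27 for SOD2 and -0.09 and -0.08 for GPX4. Overlapping GPX1 probes A_72_P623069 and A_72_P655960, which share a run of 48 of 60 bases, had line differences of 0.22 and 0.28, and A_72_P088441 and A_72_P684140, which share a run of 39, had 0.43 and 0.44. PRDX3 probes A_72_P592784 and A_72_P618915, which share a run of 22, lay on opposite sides of 0 by line, at 0.09 and -0.07.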
